A study of Mus musculus with 16 samples.

Results

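Cells sorted as GFP+ were compared with cells sorted as GFP- from mice that had received no added odorant. The comparison rests on 8 of the 16 arrays of the series, chosen by their titles: 4 arrays of the GFP+ and 4 of the GFP- fraction, 1 of each from each of 4 vehicle pools, in 2 groups. All animals, the controls included, were S100a5-tauGFP mice, in which a green fluorescent protein reports the S100a5 gene, and they were 7 to 12 weeks old and of both sexes. Each pool held the olfactory mucosa of 3 of the 24 mice. Mice sat singly for 40 h in chambers flushed with clean air at 3.1 L/min, and from 26 h on the vehicle mice received pulses of filtered air, 10 s long, at intervals of 20 min. The other 8 arrays came from mice pulsed with 2-octanone, a ketone odorant, and served here to estimate the spread. Of the 28846 probe sets, the 19572 that name a gene were tested. Values are log2 signals, and differences are GFP+ minus GFP- within pools.

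In the olfactory mucosa each olfactory sensory neuron expresses a single odorant receptor gene from a very large family, or a trace amine receptor. Lost neurons are replaced throughout life by new ones that arise from basal stem cells. Odorant binding activates a G protein, adenylyl cyclase and a cation channel in the cilia. S100a5, a calcium-binding protein, is known as a gene whose level in these neurons follows their activity. The GFP- fraction can hold neurons with low reporter as well as all other cells of the dissociated tissue, so a difference in a bulk fraction cannot separate fewer cells of a type from less RNA per cell.

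The fractions were parted in the way that 4288 of the 19572 probe sets (21.9%) passed an adjusted p of 0.05, 1948 higher (9.95%) and 2340 lower (12.0%) in GFP+ cells. Of these, 4202 had the same sign in all 4 pools. The 2 directions differed in kind. Of the 170 genes over 4-fold higher, 165 were odorant receptors, and the other 5 were Fxyd2, Olfr911-ps1, Taar4, Taar9 and Avp. Genes over 4-fold lower numbered 744, of which 148 were odorant receptors. Those over 16-fold lower numbered 200, of which 53 were odorant receptors, and the 8 genes over 16-fold higher were all odorant receptors. Pool 4 stood apart from the other pools in many genes, and without it 1025 genes were called higher (5.24%) and 1889 lower (9.65%). Counts without pool 4 stand beside the lists they change most.

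S100a5 was higher in GFP+ cells in every pool. Its signals were 16.71, 16.47, 16.47 and 13.22 in the GFP+ fractions of pools 1 to 4 and 15.81, 15.45, 15.46 and 13.11 in the GFP- fractions. Pool 4 was low in both fractions, so the groups overlapped, and the difference is seen within pools. It was 0.76 (SE 0.18, adjusted p = 0.0123), a 1.69-fold difference. That fractions with the same replicate number share a pool was inferred from the number of mice, and without this pairing the adjusted p was 0.581. Without pool 2 it was 0.0608, and without pool 3 it was 0.0581. Omp, olfactory marker protein, which mature sensory neurons make in large amounts, had GFP+ signals of 18.37, 18.35, 18.43 and 18.37 and GFP- signals of 18.33, 18.35, 18.33 and 17.76. Its difference of 0.19 (SE 0.13, adjusted p = 0.327) did not pass, and pool 4 of the GFP- fraction was the low array. The other signals lay near the highest value of the table, 18.99, and whether the probe set was saturated was not tested, so the size of this difference is uncertain. Centred on array medians, Omp differed by 0.49 (adjusted p = 0.00923), where the median over all genes was 0.42.

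**Figure D1:**
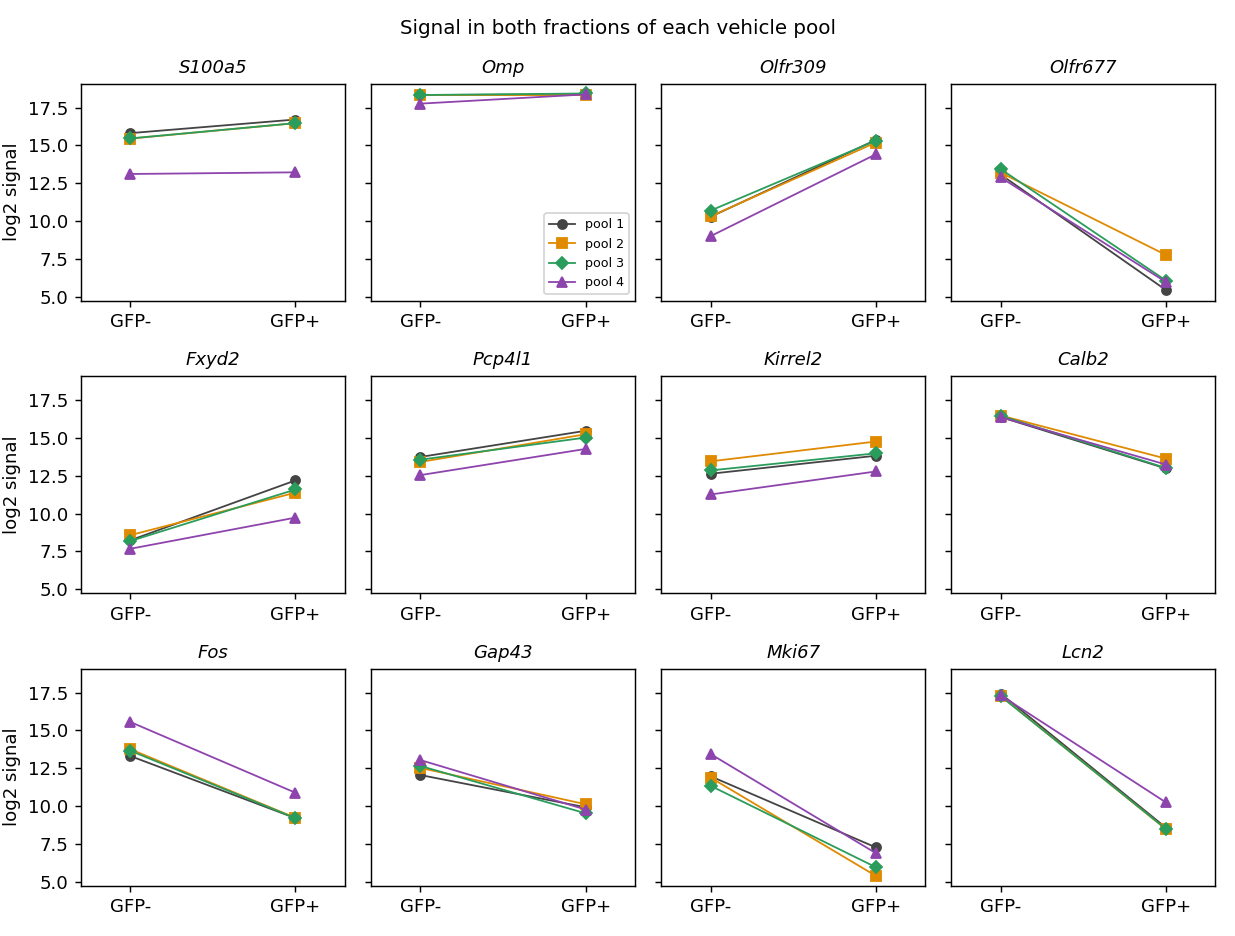
Log2 signal (vertical axis) of 12 genes in the GFP- and GFP+ fraction of each vehicle pool, joined by a line for each of the 4 pools. Lcn2, Mki67, Fos and Olfr677 fell in GFP+ cells in all 4 pools, while Olfr309 rose in all 4, and S100a5 of pool 4 lay near 13 in both fractions.

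Promoter windows are shown for the genes below because receptors changed in both directions and 12 of 21 immediate early genes fell. Windows run from 250 bases before to 50 after the annotated start, on RefSeq assembly GRCm38.p6, 5′ to 3′ on the gene's strand, and matches on either strand are in capitals (TAATTA in the receptors, TGACG in Fos). In both receptor windows shown, the 50 bases after the annotated start begin with ATG. That start may be of the coding sequence and not of transcription. The shares given for receptors may therefore describe sequence next to the coding start, and whether these windows hold promoters was not tested. The receptors were chosen after their values were seen, as the largest difference in each direction among windows that hold the homeodomain motif TAATTA, so their holding it is no result. Olfr481 lies on the plus strand at chr7:108080546-108080845, Olfr393 on the minus strand at chr11:73848074-73848373, Fos on the plus strand at chr12:85473640-85473939 and S100a5 on the plus strand at chr3:90608272-90608571.
Olfr481: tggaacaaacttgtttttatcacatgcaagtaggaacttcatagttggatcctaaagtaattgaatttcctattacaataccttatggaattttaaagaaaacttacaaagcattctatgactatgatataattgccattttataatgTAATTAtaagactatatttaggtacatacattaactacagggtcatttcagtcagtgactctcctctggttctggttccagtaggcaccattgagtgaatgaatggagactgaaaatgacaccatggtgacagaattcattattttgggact
Olfr393: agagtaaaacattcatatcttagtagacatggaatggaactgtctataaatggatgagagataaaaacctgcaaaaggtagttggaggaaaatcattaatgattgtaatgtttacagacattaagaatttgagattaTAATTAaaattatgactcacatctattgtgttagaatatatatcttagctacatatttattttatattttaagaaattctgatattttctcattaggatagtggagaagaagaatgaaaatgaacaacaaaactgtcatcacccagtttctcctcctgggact
Fos: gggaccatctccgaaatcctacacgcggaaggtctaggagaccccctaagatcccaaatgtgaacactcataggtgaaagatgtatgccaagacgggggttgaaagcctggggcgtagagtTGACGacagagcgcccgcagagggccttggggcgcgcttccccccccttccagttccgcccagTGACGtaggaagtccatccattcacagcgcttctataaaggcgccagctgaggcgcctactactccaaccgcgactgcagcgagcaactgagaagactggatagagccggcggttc
S100a5: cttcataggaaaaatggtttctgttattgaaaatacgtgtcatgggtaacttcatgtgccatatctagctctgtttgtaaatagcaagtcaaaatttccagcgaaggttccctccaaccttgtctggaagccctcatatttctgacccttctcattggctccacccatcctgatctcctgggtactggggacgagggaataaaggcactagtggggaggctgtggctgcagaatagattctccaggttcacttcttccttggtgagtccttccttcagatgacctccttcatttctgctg
TAATTA stood in 19.6% of the windows of receptors called higher (383 with a window), 19.7% of those called lower (203), 18.5% of all receptors (922) and 5.31% of all genes (27025). The shares of higher and lower receptors lay close to that of all receptors. TATAAA stood in 161 of the 383 windows of higher receptors, in 46.8% of the windows of lower receptors, 41.2% of all receptors and 14.2% of all genes. The Fos window holds TGACG, the core of the cAMP response element, 129 and 66 bases before the start. Of the immediate early list, 12 of 17 windows held TGACG (70.6%), against 21.0% of all genes. None held a CArG box, a motif searched after the values were seen. As 1.57% of all genes held it, none among 17 windows was likely in any case and is no result. Sequence more than 250 bases before the start was not searched. S100a5 held none of the motifs searched in it, so its window has no capitals.

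Odorant receptors carried the largest positive differences. Of 1081 measured receptors, 451 were called higher (41.7%) and 241 lower (22.3%) in GFP+ cells, beside 9.95% and 12.0% of all genes, and 389 were not called. The median difference over all receptors was 0.41, against 0.12 over all genes. Among the called receptors, all 4 GFP+ arrays lay above all 4 GFP- arrays for 363 and below them for 211. Over all genes, called or not, the arrays lay apart in these ways for 11.3% and 11.8%, which is not the same measure. Called receptors that rose had a median difference of 1.70, and those that fell of −2.60. Falls reached further: 53 fell over 16-fold and 8 rose over 16-fold. Without pool 4, 393 were higher and 245 lower, and all but 1 of the higher and 229 of the lower had been called with it.

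Olfr309, an odorant receptor gene on chromosome 7, had the largest rise of any gene. Its GFP+ signals were 15.36, 15.19, 15.31 and 14.41, and its GFP- signals were 10.28, 10.31, 10.69 and 9.0. No array of one fraction came near the other, and the difference was 5.0 (SE 0.29, adjusted p = 3.59e-07), or 31.9-fold. Olfr481 followed at 4.88, Olfr536 at 4.76, Olfr613 at 4.62, Olfr1093 at 4.46, Olfr110 at 4.19, Olfr281 at 4.02 and Olfr533 at 4.00. For Olfr481 the GFP+ signals were 11.77, 11.12, 11.52 and 10.19, and the GFP- signals were 6.95, 6.55, 7.2 and 4.38.

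Olfr677 had the largest fall of any receptor. It read 5.44, 7.76, 6.07 and 5.97 in GFP+ cells, against 13.07, 13.20, 13.43 and 12.88 in GFP- cells, again with no overlap. The difference was −6.84 (SE 0.35, adjusted p = 1.64e-07), or 114-fold. Olfr1507 fell by 6.77, Olfr390 by 6.74, Olfr1213 by 6.52, Olfr1384 by 6.46, Olfr1406 by 6.07, Olfr393 by 6.04 and Olfr1178 by 5.98.

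**Figure D2:**
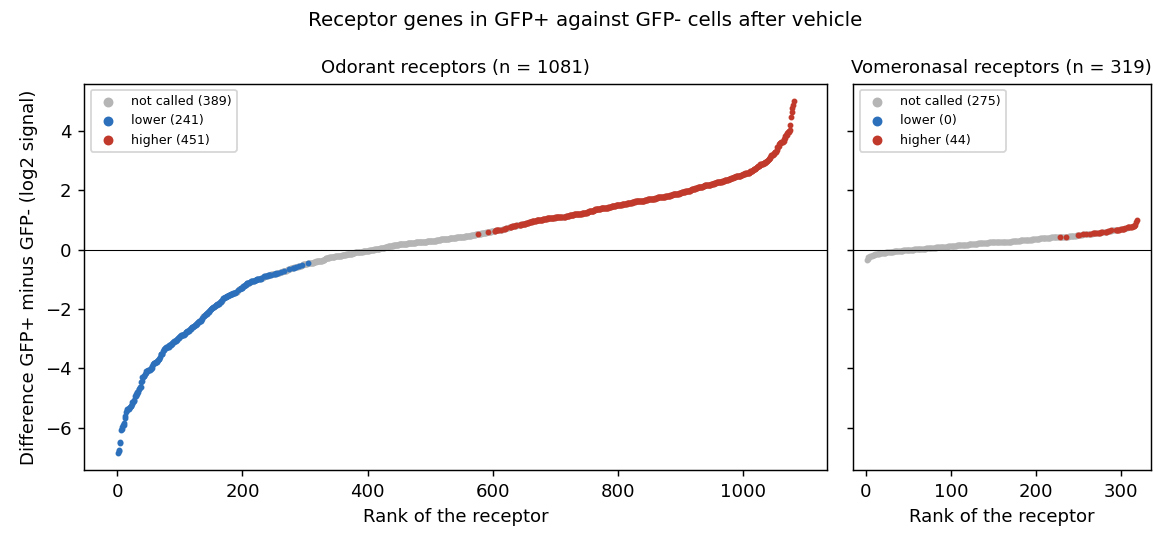
Difference between fractions (vertical axis, log2 signal) against the rank of each receptor, for 1081 odorant receptors and 319 vomeronasal receptors, coloured by call at an adjusted p of 0.05. Odorant receptors run from −6.84 to 5.0, while vomeronasal receptors stay between −0.36 and 1.00.

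Vomeronasal receptors, which work in another organ, give the spread of probe sets with little signal. Of 319, 247 were at the array's background in both fractions. None fell and 44 rose (13.8%, beside 9.95% of all genes). The median was 0.26 and 263 of the 319 differences were positive, so small positive differences, mostly not called, were common in this list. The 44 calls were not split by background.

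Receptors were also read by class and family. Class I receptors, an older group of the family, gave 41 rises and 18 falls among 118, all on chromosome 7, and class II receptors 405 rises and 217 falls among 942. The medians were 0.39 and 0.42, and 21 receptors had no family name. Of 41 families with 8 or more members, 8 held only rises among the calls, 2 only falls and 31 both. Family MOR106 on chromosome 14 had 11 rises and 1 fall among 13 members, from Olfr741 at 3.63 to Olfr736 at −3.36. Family MOR135 on chromosome 11 had 1 rise and 11 falls among 17, from Olfr376 at 2.81 to Olfr390 at −6.74. Family MOR283 on chromosome 7 had 9 rises and no fall among 12, with a median of 2.22, and MOR225 on chromosome 2 had 2 rises and 7 falls among 11, with a median of −2.61.

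Pairs of called receptors from one family had the same direction in 61.8% of 2560 pairs, against 54.7% of all pairs of called receptors. Of 457 pairs of called neighbours along a chromosome, 306 went the same way (67.0%). Neighbours here are consecutive measured receptors on a chromosome, at any distance. Family members and some neighbours can share sequence, and the probes of close copies can read each other's RNA. Its part in these shares was not tested. Adjacent genes could still differ widely. Olfr99 on chromosome 17 read 6.74, 7.92, 7.64 and 8.22 in GFP+ cells, against 13.25, 13.26, 13.41 and 13.99 in GFP- cells. Its neighbour Olfr101 read 12.99, 12.39, 12.85 and 11.01 against 8.83, 8.90, 8.74 and 6.93. The differences were −5.85 and 3.96, and neither gene's fractions overlapped. By chromosome, rises were called for 61.5% of 39 receptors on chromosome 14 and 61.1% of 36 on chromosome 16. They were called for 14.8% of 27 on chromosome 6 and 21.5% of 65 on chromosome 10, where falls made up 40.7% and 33.8%.

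**Figure D3:**
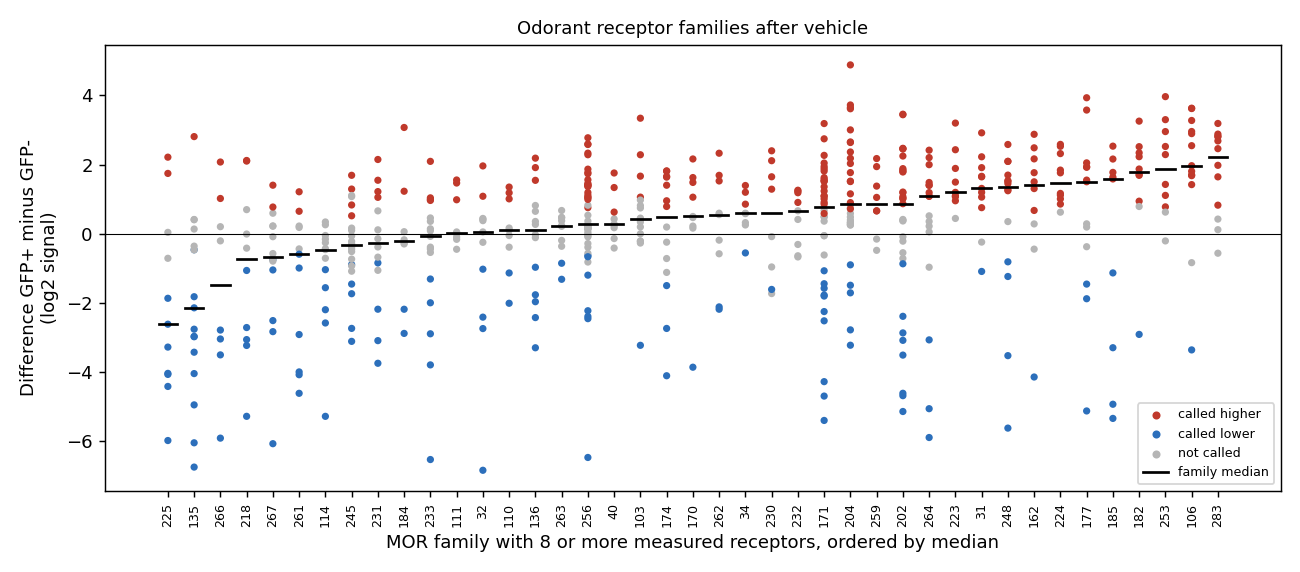
Difference between fractions (vertical axis, log2 signal) of each receptor in the 41 MOR families with 8 or more members, ordered by family median (black bars) from −2.61 to 2.22. Most families hold receptors on both sides of 0.

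Trace amine receptors, which detect volatile amines in a small set of sensory neurons, also split. Of 15, 7 were called higher (46.7%) and 5 lower (33.3%), beside 9.95% and 12.0% of all genes. Taar4 read 11.57, 11.32, 10.84 and 10.39 in GFP+ cells, against 8.26, 9.01, 9.63 and 7.40 in GFP- cells. All its GFP+ arrays were the higher ones, with a difference of 2.45 (SE 0.29, adjusted p = 7.69e-05). Taar9 differed by 2.42, Taar8a and Taar8c by 1.24 each, Taar5 by 1.07, Taar7b by 1.06 and Taar7e by 0.97. Taar2 went the other way, with 7.99, 7.23, 8.20 and 8.71 against 11.33, 11.18, 11.16 and 10.84. It fell by 3.10 (SE 0.43, adjusted p = 0.000275), Taar7a by 2.50, Taar7d by 1.63, Taar7f by 1.59 and Taar6 by 1.54. Taar3, Taar8b and Taar1 differed by 0.27, −0.77 and 0.05 and did not pass. Taar7 and Taar8 genes are near-identical copies, so their probe sets may share RNA. The call for Taar7b was lost without pool 4 (adjusted p = 0.0547), and those for Taar7e and Taar8c without the pairing (0.0995 and 0.0602).

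**Figure D4:**
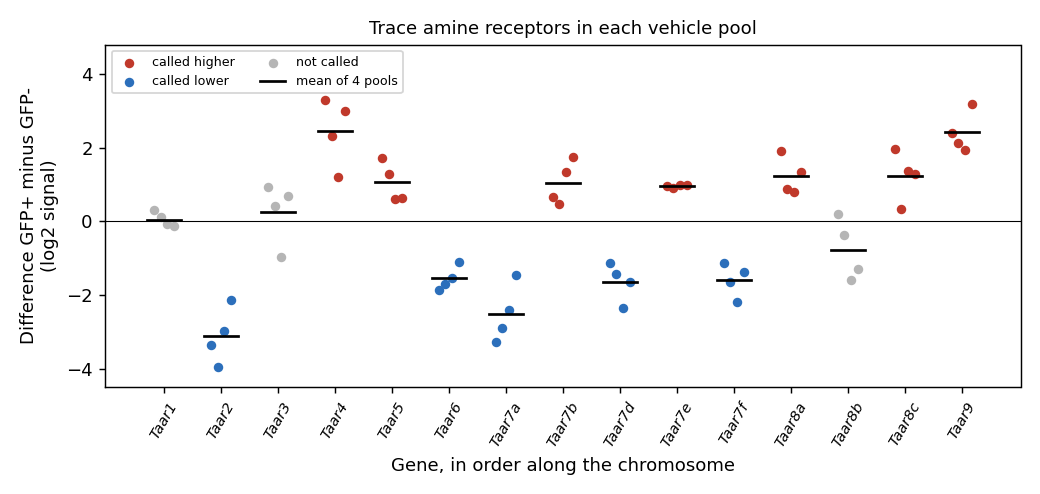
Difference between fractions (vertical axis, log2 signal) of 15 trace amine receptors in order along chromosome 10, with a point for each of the 4 pools and a bar at their mean. Genes called higher and lower are interspersed along the cluster, from Taar2 at −3.10 to Taar4 at 2.45.

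Genes known to be raised by sensory activity were mostly higher in GFP+ cells: 7 of 11 rose (63.6%) and 1 fell (9.09%), with a median of 0.76. Among all genes 9.95% rose and 12.0% fell. S100a5 itself is one of the 7 and marks the sort. Lrrc3b, a leucine-rich repeat membrane protein, rose by 1.78, Pcp4l1, related to a calmodulin regulator, by 1.69, and Pcdh10, a protocadherin, by 1.47. Pcp4l1 read 15.47, 15.24, 15.02 and 14.27 in GFP+ cells against 13.74, 13.41, 13.56 and 12.54. Kirrel2, a cell adhesion protein that sorts axons into glomeruli, rose by 1.28, Sema7a by 0.87 and Srxn1, sulfiredoxin, by 0.72. Without the pairing 3 of the 7 were called, and the adjusted p was 0.0559 for Pcdh10, 0.0653 for Kirrel2 and 0.113 for Srxn1. Calb2, the calcium buffer calretinin, was the exception. It read 12.98, 13.63, 13.01 and 13.24 against 16.38, 16.48, 16.46 and 16.37, a fall of 3.21 (SE 0.15, adjusted p = 9.13e-08).
Of 5 other glomerular sorting genes, Epha5, an ephrin receptor, rose by 1.11 and none fell. These 5 were listed as lowered by activity, which was not tested here for any of them.

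Immediate early genes, which stimulated cells switch on within minutes, were lower in GFP+ cells. Of 21, 12 fell (57.1%, beside 12.0% of all genes) and none rose, with a median of −1.15. Fos, a subunit of the transcription factor AP-1 and one of the windows printed above, read 9.20, 9.22, 9.20 and 10.88 in GFP+ cells. It read 13.31, 13.76, 13.66 and 15.56 in GFP- cells. Pool 4 was the highest array in each fraction, and the fall was 4.44 (SE 0.20, adjusted p = 8.05e-08). Btg2 fell by 3.75, Junb by 3.70, Egr1 by 3.36 and Nr4a1 by 1.92, and Nr4a1 lost its call without pool 4 (adjusted p = 0.0715). Neutrophil and other immune genes moved in the same direction in the same arrays, as given below, and their part in these falls was not tested.

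Of 16 genes of odorant transduction, 6 rose (37.5%) and 2 fell (12.5%), beside 9.95% and 12.0% of all genes, with a median of 0.30. With centred arrays 13 rose, and so did 10762 of all 19572 genes. The medians were then 0.6 for the list and 0.42 for all genes. Pde1c, a cyclic nucleotide phosphodiesterase of the cilia, rose by 0.76, Pde4a, another phosphodiesterase, by 0.62, Ano2, the calcium-gated chloride channel, by 0.61 and Cngb1, a channel subunit, by 0.50. Without pool 4, 2 of the 6 stayed called, and the adjusted p was 0.0657 for Pde4a and 0.079 for Cngb1. Rgs2, a regulator of G protein signalling, fell by 5.17 (SE 0.27, adjusted p = 1.71e-07). Of 14 receptor chaperone and receptor choice genes, Reep1 rose by 0.42 and Lbr, the lamin B receptor, fell by 1.95, and without pool 4 Reep1 was not called (adjusted p = 0.187).

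Of 16 genes of mature sensory neurons, 4 rose (25.0%) and 2 fell (12.5%), beside 9.95% and 12.0% of all genes. The list's median was 0.35, and without the pairing 2 rose. Kcnmb3, a potassium channel subunit, rose by 1.34 and Cidea by 1.12, while Scg2, a secretogranin of neurosecretory vesicles, fell by 1.59. Of 18 presynaptic release genes 6 rose (33.3%), Syn2 by 0.77 and Bsn by 0.60 among them. Without pool 4 the count was 1, and without the pairing 2. Of 23 genes of intraflagellar transport and the BBSome 9 rose (39.1%), among them Ift172 by 0.59 and Bbs2 by 0.48. Here the count without pool 4 was 2. Both lists had medians above that of all genes, 0.40 and 0.38 against 0.12. Among ion channels 15 of 126 rose (11.9%) and 7 fell (5.56%), beside 9.95% and 12.0% of all genes. Without pool 4 the counts were 4 and 4, and without the pairing 8 and 6. Kcnn2, a calcium-activated potassium channel, rose by 1.11 and Hcn2, a pacemaker channel, by 0.61, and Hcn2 lost its call without the pairing (adjusted p = 0.0894). Among protocadherins 13 of 31 rose (41.9%) and 1 fell (3.23%), with Pcdh7 at 1.35 and Pcdh8 at 1.17. Without pool 4, 6 protocadherins rose, and without the pairing 8 rose.

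Outside the receptors and lists, Fxyd2, a regulatory subunit of the sodium pump, had the largest rise. It read 12.19, 11.38, 11.59 and 9.73 in GFP+ cells, against 8.23, 8.57, 8.18 and 7.67 in GFP- cells, a difference of 3.06 (SE 0.37, adjusted p = 8.72e-05). Avp, the hormone vasopressin, read 8.99, 8.84, 8.61 and 8.67 against 6.85, 7.03, 6.55 and 6.47, a rise of 2.06. Rarb, a retinoic acid receptor, rose by 1.77, Akap3, a kinase anchor, by 1.66, Ptprn, a dense core vesicle protein, by 1.55, Nell2 by 1.51, Rfx4, a transcription factor, by 1.41 and Slc7a8, an amino acid transporter, by 1.40.

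Genes of precursor and cycling cells were lower in GFP+ cells. Where a gene is said to be at background in GFP+ cells, its fall is a lower limit in size. All 16 proliferation genes fell, beside 12.0% of all genes, with a median of −2.57, and none rose. Without pool 4 the count was 15. Mki67, the proliferation antigen, read 7.27, 5.39, 5.96 and 6.89 against 11.97, 11.88, 11.34 and 13.44, a fall of 5.78. Ccnb2, a mitotic cyclin, fell by 4.25 and Rrm2, a ribonucleotide reductase subunit, by 3.74. Of 11 globose basal and precursor genes 8 fell (72.7%), and 6 fell without pool 4. Among the 8, Kit fell by 3.62, Sox11 by 2.88 and Neurog1, which was at background in GFP+ cells, by 1.38.

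Immature sensory neuron genes followed: 10 of 15 fell (66.7%, beside 12.0% of all genes) and none rose, with a median of −2.14. Cxcr4, a chemokine receptor of precursors, fell by 4.75, Gng8, a G protein subunit of young neurons, by 4.41 and Nhlh1, a transcription factor, by 4.36. Gap43, the growth cone protein, read 9.92, 10.12, 9.52 and 9.77 against 12.05, 12.52, 12.65 and 13.04, with no overlap and a fall of 2.73 (SE 0.24, adjusted p = 8.28e-06). Histones, 42 of 57 lower (73.7%) with a median of −1.29, moved the same way, with H1f1 down by 3.87 and H2ac8 by 2.81. Of 61 cytosolic ribosomal protein genes 36 fell (59.0%), among them Rplp0 by 1.66 and Rps16 by 1.26, with a list median of −0.52. Without pool 4 the count was 17, beside 9.65% of all genes, and with centred arrays it was 16.

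Genes of microvillar cells, the non-neuronal chemosensory and ion-transporting cells of the epithelium, were likewise lower in GFP+ cells. Of 13 tuft type genes 12 fell (92.3%, beside 12.0% of all genes). Trpm5, the channel that marks this type, read 6.50, 7.28, 6.58 and 6.77 against 10.18, 10.18, 10.33 and 10.77, a fall of 3.58. Alox5 fell by 4.66, Gnat3 by 2.65 and Pou2f3 by 2.42, and the first 2 of these were at background in GFP+ cells. Of 9 ionocyte type genes 8 fell (88.9%), Hepacam2 by 4.45, Ascl3 by 3.78, Foxi1 by 3.21 and Cftr, a chloride channel, by 2.67.

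Supporting and secretory cells did not part the fractions in that way. Cyp2g1, a sustentacular cytochrome P450, read 15.83, 15.78, 14.29 and 15.84 in GFP+ cells, against 15.21, 15.56, 15.09 and 15.52 in GFP- cells, a difference of 0.09 (adjusted p = 0.862). Its signal was high in both fractions, and the arrays overlapped. Of 14 sustentacular genes 3 rose (21.4%, 0 genes without the pairing) and 2 fell (14.3%), beside 9.95% and 12.0% of all genes. The 2 that fell were Krt18, by 2.27, and Krt8, by 1.81, keratins that other epithelial cells make too. The rise of Sec14l3, 0.63, was lost in 8 of 14 alternatives, among them without the pairing (adjusted p = 0.262). Of 13 Bowman's gland genes 2 fell (15.4%, 1 gene without pool 4), near the 12.0% of all genes. Of 9 horizontal basal genes 1 fell (11.1%), with 6 at background in both fractions. Of 8 glial genes 2 fell (25.0%), of 9 endothelial genes 1 fell (11.1%), and of 7 fibroblast genes none passed. Of 11 genes of ciliated respiratory cells 5 rose (45.5%), Rsph1 by 0.67 and Tekt1 by 0.57 among them, and 2 without pool 4.

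Blood cell genes made up the largest falls. All 12 neutrophil genes fell, beside 12.0% of all genes, with a median of −7.77. The mean of the 12 signals was 6.55 to 7.91 in GFP+ arrays and 14.00 to 15.13 in GFP- arrays. Lcn2, lipocalin 2, read 8.57, 8.47, 8.49 and 10.24 against 17.43, 17.28, 17.26 and 17.32, a fall of 8.38 (SE 0.84, adjusted p = 2.08e-05). Retnlg fell by 8.49, S100a8 by 8.24, Ngp by 8.15, Mmp8 by 7.99, S100a9 by 7.96, Camp by 7.58, Ltf by 7.35 and Mmp9 by 7.31. All 7 genes of myeloid precursors fell, Mpo, a granule peroxidase, by 6.47, Elane, neutrophil elastase, by 5.95 and Myb by 4.76. Other genes with the largest falls were Ly6c2 at −8.48, Chil3 at −8.29, Ly6c1 at −8.18, Fn1 at −7.28, Hp at −7.19 and Ifitm6 at −6.99.

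Of 14 monocyte and macrophage genes 9 fell (64.3%, beside 12.0% of all genes), Ccr2 by 6.93, Fcer1g by 5.03 and Csf1r by 1.32 among them. C1qa, a complement subunit of resident macrophages, read 9.59, 9.44, 8.25 and 9.90 against 8.81, 8.62, 8.52 and 10.19, and its difference of 0.26 did not pass (adjusted p = 0.547). The fractions overlapped for this gene. Of 6 MHC class II genes 5 fell (83.3%), H2-Ab1 by 4.77 and H2-Aa by 4.52. Of 8 B cell genes 5 fell (62.5%), Cd79a by 3.34 and Cd79b by 3.00. Of 8 T and NK cell genes 6 fell (75.0%), Nkg7 by 2.14 and Cd3e by 1.61. All 6 erythroid genes fell, Rhag by 3.54 and Slc4a1 by 2.37.

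**Figure D5:**
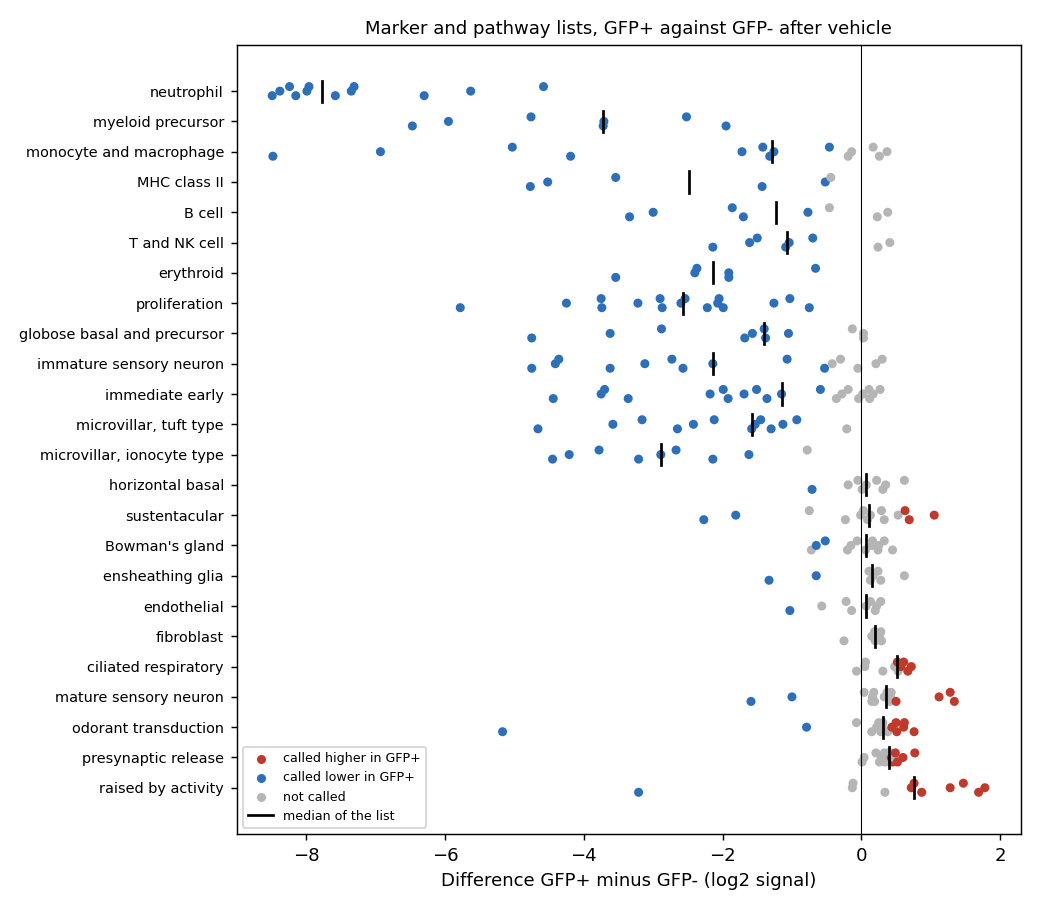
Difference between fractions (horizontal axis, log2 signal) of each gene in 24 lists, coloured by call, with a bar at the list's median. The neutrophil list has its median at −7.77, the lists of precursors, immature neurons and microvillar cells have medians below 0, and the list raised by activity has its median at 0.76.

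The list for sensory neurons of the guanylyl cyclase D type gave mixed values. Of 8 genes 1 rose (12.5%) and 3 fell (37.5%), beside 9.95% and 12.0% of all genes. Gucy2d, which defines these neurons, was at background in both fractions, at 4.36, 4.55, 4.34 and 4.64 against 4.18, 4.62, 4.33 and 4.18. The list therefore cannot tell how these neurons differed between fractions. Ms4a6c fell by 3.71, Pde2a, a phosphodiesterase that other cells also make, by 3.46 and Car2 by 0.70. Gucy1b2, a soluble guanylyl cyclase subunit, rose by 0.96. Stress genes were called at about the 21.9% of all genes. Of 10 integrated stress response genes Nfe2l2 rose by 0.60 and Asns fell by 0.45, of 9 unfolded protein response genes Dnajb9 rose by 0.40 and Xbp1 fell by 0.51, and without pool 4 none of these 4 was called (adjusted p from 0.116 to 0.217). Of 9 heat shock genes 2 fell, against 0 without the pairing, and Hspa1a, a heat shock protein, fell by 0.90, with an adjusted p of 0.169 without the pairing.

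The same difference between fractions was measured in the mice given 2-octanone, and its change with the odorant was tested in the same model. No gene of 19572 passed, 792 had an unadjusted p under 0.05, and the smallest adjusted p was 0.999. Without the pairing the counts were 0 and 465. Both unadjusted counts are below a share of 0.05 of the genes tested, the share that no change at all would give.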

How the data were processed

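RNA of sorted olfactory mucosa cells, 50 to 100 ng per sample per the labels, was measured on Clariom S mouse arrays. The authors deposited 1 log2 signal per probe set and array, made with Affymetrix Expression Console per the submitters' processing notes. The log base was read from the range of values (2.13 to 18.99), and the normalization algorithm is not given in the sources used here. Of 28846 probe sets, 6640 were controls, 2634 named no gene and 19572 were tested; all matched RefSeq by gene identifier. A gene with several probe sets is described by the brightest.

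All 16 arrays were fitted with limma 3.58.1 (lmFit, eBayes) in R 4.3.3, with the 8 pools as a fixed block, which left 6 residual degrees of freedom. The contrast was GFP+ minus GFP- within the 4 vehicle pools, two-sided, called at a Benjamini-Hochberg adjusted p of 0.05. Fractions with the same replicate number were taken as 1 pool, which the labels do not state in words: 24 mice in groups of 3 give 8 pools for 16 arrays. Deviations of fractions with the same number correlated at 0.086, 0.221, 0.301 and 0.442, and those of unlike numbers at up to 0.168. The fit was tested on simulated data. A gene was at background when its mean lay at or under that of 23 background probe sets (5.53 in GFP+, 5.49 in GFP-). The number of arrays limits the precision.

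The comparison, its 45 gene lists (376 listed genes in the lists given by symbol, 344 measured) and the genes named were chosen with earlier results of these data known. The rule for names took S100a5, Omp, all trace amine receptors, the 8 receptors and 15 other genes with the largest called difference in each direction and the same sign in 4 pools, and 2 to 5 members of each list with the smallest p, plus members that mark a cell type. Not all are named in the text. Olfr99 and Olfr101, the receptor families and the chromosomes given were chosen after their values were seen. The alternatives were no pairing, a random block, vehicle arrays only, quantile normalization, median centring, a filter on low signals, unnamed probe sets, trend and robust options, a threshold of 0.1, a minimum difference of 1, and each pool or both pools 4 left out. Protein sequences were not used here.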

Additional observations from a re-analysis of the deposited data

Results flagged for a closer look

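In 31 of 280 sets of 4 arrays (140 named genes in 2 fractions) the highest or lowest array lay far from the other 3. Chance gives about 1 in 20. Of the 31, 25 concerned pool 4, and the cause was not tested.

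In the GFP- array of pool 4, genes of mature neurons and receptors were low: S100a5 at 13.11, Omp at 17.76, Ano2 at 16.19, Pde4a at 13.31, Syn2 at 12.18, Ptprn at 8.05, Rfx4 at 7.71, Olfr281 at 7.29, Olfr101 at 6.93 and Taar7a at 9.01. Genes of blood cells, precursors and early response were high in it: Hp at 14.63, Ifitm6 at 14.65, C1qa at 10.19, H2-Ab1 at 13.62, Cxcr4 at 12.47 and Btg2 at 12.63. So were Pde2a, at 11.98, and the ribosomal protein gene Rplp0, at 13.47.

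In the GFP+ array of pool 4, S100a5 at 13.22, Olfr536 at 13.25, Slc7a8 at 10.50, Pcdh7 at 11.20 and Elane at 6.29 were low, and Fos at 10.88 and Lcn2 at 10.24 were high. Elsewhere, pool 1 was apart in GFP+ cells for Taar8a at 9.37, Rplp0 at 11.24 and Bsn at 8.20. Pool 3 was low for Cyp2g1 at 14.29 and Fcer1g at 7.34 in GFP+ cells and for Elane at 10.95 in GFP- cells.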

How the results depend on the processing

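Of the 138 named genes besides S100a5 and Omp, 113 kept their direction and their side of the threshold in every alternative that could test them. Over all alternatives 70 results of named genes lost their call, 4 gained one, and 3 changed sign without ever being called: Taar1, at −0.03 with quantile normalization and at −0.03 without pool 1, and Cyp2g1, at −0.09 without pool 1. With each pool left out in turn, Taar1 ran from −0.03 to 0.11 and Cyp2g1 from −0.09 to 0.39. The fit with no replicate block called 1475 genes higher and 2158 lower, 3633 in all, and S100a5, still at 0.76, had an adjusted p of 0.581, or 0.454 with the pool as a random block. Leaving out 1 pool at a time gave 2914 to 3725 calls, 1025 to 1550 higher and 1889 to 2175 lower. The lowest counts came without pool 4, where 950 higher and 1867 lower genes were called in both fits. Without both pools 4, 1086 were higher. The leave-one-out range was 393 to 436 for receptors higher, 217 to 245 for receptors lower, 138 to 163 for genes of the symbol lists, 0.67 to 0.97 for S100a5 and 0.05 to 0.25 for Omp.

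Median centring moved the median difference from 0.12 to 0.42 and raised the calls to 12613, of which 10762 were higher (85.3%, against 45.4%), and took Omp to 0.49 (adjusted p = 0.00923). Quantile normalization called 3205 higher (59.2% of calls). The split of small differences into higher and lower therefore rests on the normalization. The filter on low signals, which tests fewer genes, left 1234 lower calls and 114 genes of the symbol lists, against 174. A threshold of 0.1 gave 3148 higher, and a minimum difference of 1 gave 2011 calls, 481 higher and 1530 lower. Medians of the chemokine list (−0.06 to 0.24, centred), and of the guanylyl cyclase D, dorsal and ventral lists (to −0.10, −0.01 and −0.02, quantile) changed sign. Causes were not tested.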

Other observations

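Some fixed lists were not described above. Of 96 genes of oxidative phosphorylation 10 rose and 1 fell in GFP+ cells, with a median of 0.24, and 4 rose without pool 4. The share that rose, 10.4%, lies near the 9.95% of all genes. Of 56 chemokines and their receptors 2 rose (1 without pool 4) and 17 fell (30.4%, beside 12.0% of all genes). Of 128 genes of cytochrome P450 and transferase families, which metabolize odorants and toxicants, 7 rose (5.47%) and 13 fell (10.2%), beside 9.95% and 12.0% of all genes. Without pool 4 the counts were 4 and 9, without the pairing 2 and 12, and 64 were at background in GFP+ cells. Of 16 axon guidance genes 3 rose (18.8%) and 1 fell (6.25%), with a median of 0.17, and the 4 dorsal zone genes gave no call. Of 5 ventral zone genes 1 fell (20.0%), and the call was lost without pool 4.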
